A study of Mus musculus with 16 samples.

Results

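The comparison asked in which genes the response to hydrogen peroxide (H2O2) differed between 2 kinds of 6DT1 cells, a mouse mammary cancer line of strain FVB/N1. The cells had been transduced with a lentivirus carrying CLIC4 or with an empty vector, and were lysed untreated or after 24 h in 1 µM H2O2. The value for a gene is its log2 response (treated over untreated) with the empty vector minus its log2 response with the lentivirus, called here the difference of responses. It rests on 15 of the 16 libraries of the series: 3 untreated (libraries 9, 10 and 12) and 4 treated (13 to 16) with the empty vector, and 4 untreated (1 to 4) and 4 treated (5 to 8) with the lentivirus. Library 11, untreated with the empty vector, was left out because its counts stood apart from its group, and was added back as a check. The sample descriptions name the empty-vector cells a CLIC4 knockout and the lentivirus cells wild type, which the series text does not say. Whether the cells of a vector come from 1 clone, and whether the libraries of a group come from separate cultures, is not given in the sources used here, so p-values measure the spread between these libraries, which may be technical.

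H2O2 is a small oxidant that cells make in mitochondria and at membrane oxidases and clear with catalase, peroxiredoxins and glutathione peroxidases. Above what these enzymes clear, it oxidizes thiols and can act on transcription through NRF2, ATF4, p53 and other factors. CLIC4 belongs to the chloride intracellular channel family, whose soluble forms have a fold like that of glutathione transferases and an oxidoreductase activity in vitro. Mitochondria and oxidant resistance are the subject named in the title of the series.

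Totals ran from 47.1 to 61.9 M counts. Clic4 stood at 40.4 to 46.2 CPM (counts scaled to the size of the library, here with TMM factors) in the 7 empty-vector libraries of the comparison, at 138 CPM in library 11 and at 227 to 263 CPM in the 8 lentivirus libraries, and its own difference of responses was -0.09 (SE 0.0666, edgeR adjusted p = 0.554). The difference of Clic4 was -0.73 with library 11 added back. Counts of a transferred and the resident gene are not kept apart in the table. Within groups the lowest correlation of log2 CPM over genes was 0.9978, while library 11 reached at most 0.924 with its group. Keratin genes marked the line (Krt8 at group means of 423 to 635 CPM without TMM factors). Epcam and Cdh1, which define epithelial cells, were at or near 0 in all groups. Mesenchymal markers were mixed on the same scale. Vim was at 2590 to 3900 CPM, Fn1 at 40.5 to 336 CPM and Pdgfra at 4.32 to 16.5 CPM. Dcn was at 0.0581 to 2.1 CPM, and Cdh2, Pdgfrb, Thy1 and Lum were at most at 0.248 CPM in any group. Of a short panel of markers of epithelial, mesenchymal, immune and endothelial cells, 3, 5, 3 and 4 were tested. None was called in the difference, which at 0.192% of all genes tested called says little about the cells. In bulk RNA, fewer cells of a type and less RNA per cell cannot be told apart.

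The responses differed in 28 of 14602 genes tested (0.192%), and the differences were small. In 10 genes (0.0685%) the response was higher with the empty vector, with a median difference of 0.40 on the log2 scale and a range of 0.27 to 2.47. In 18 genes (0.123%) it was lower, with a median of -0.30 and a range of -0.49 to -0.20. Calls were made at an adjusted p under 0.05 by edgeR's quasi-likelihood test with Benjamini-Hochberg adjustment over all genes. Of the 28, 3 differed by at least 1.5-fold, and all 3 are genes of predicted or clone-based names at low level. The median over all genes tested was -0.00. With library 11 added back edgeR called 0 genes, and with the trend of counts with length taken out of each library it called 1. Differences of single genes under these settings are given below for some of the called genes only. A gene without such a value is not thereby unaffected.

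**Figure D1:**
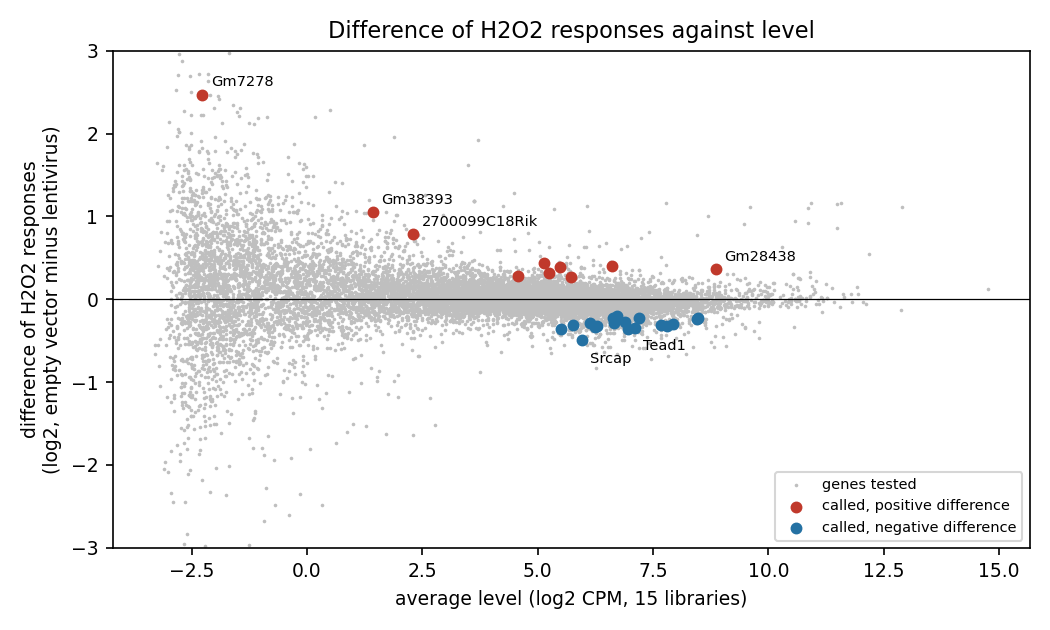
Difference of H2O2 responses (log2, empty vector minus lentivirus) of each gene tested against its average level (log2 CPM over 15 libraries), with the 10 called genes of positive difference in red and the 18 of negative difference in blue. Apart from 2700099C18Rik, Gm38393 and Gm7278 the called genes lie within 0.5 of 0, and 33 uncalled genes lie outside the axis limits of 3.

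Every called gene had responses of opposite sign with the 2 vectors, a pattern that 52.1% of all genes tested shared. The 10 genes of positive difference were higher after H2O2 with the empty vector (log2 response 0.16 to 1.51) and lower after it with the lentivirus (-0.96 to -0.04). The 18 of negative difference were lower with the empty vector (-0.32 to -0.12) and higher with the lentivirus (0.05 to 0.17). Taken alone, the response with the empty vector passed the edgeR test in 12 of the 28 genes and that with the lentivirus in 0. Over all genes tested 0.24% passed with the empty vector and 0% with the lentivirus. The smallest adjusted p of a lentivirus response among the 28 was 0.154. With the empty vector the treated libraries did not overlap the 3 untreated in any of the 28 genes, against 12.8% of all genes tested. With the lentivirus they did not overlap in 11 of the 28, against 11.1%. These 11 genes thus had opposite responses without overlap in either vector, which 0.562% of all genes tested showed. All of these values come from the contrast that chose the genes and are given as a description.

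**Figure D2:**
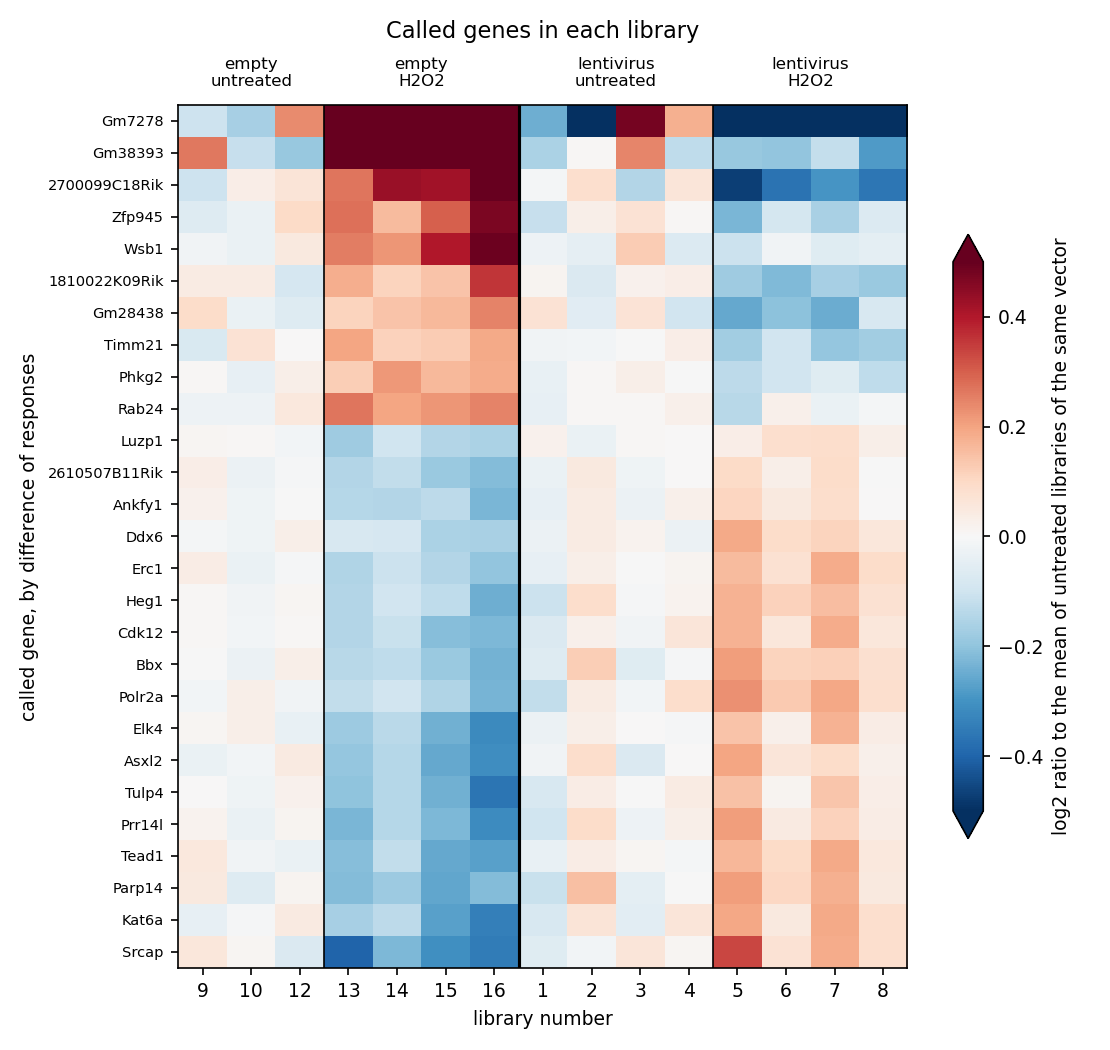
Log2 ratio of each of 27 called genes in each of 15 libraries to the mean of the untreated libraries of the same vector, with genes ordered by the difference of responses; colours end at 0.5 in either direction. The blue and red blocks of libraries 13 to 16 mostly turn to the opposite, paler colour in libraries 5 to 8.

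Among genes whose response was lower with the empty vector, the smallest p belonged to Tead1 (chromosome 7, 112679318 to 112906807, mm10). It encodes a DNA-binding partner of the Hippo pathway coactivators YAP and TAZ. Its levels with the empty vector were 156, 149 and 147 CPM untreated and 130.0, 138, 126 and 125 CPM treated. With the lentivirus they were 127, 134, 131 and 129 CPM untreated and 146, 139, 148 and 135 CPM treated. Treated libraries thus lay below the untreated with the empty vector and above them with the lentivirus, without overlap. The difference of responses was -0.34 (SE 0.0533, edgeR adjusted p = 0.0238). It was -0.88 with library 11 added back (edgeR adjusted p = 0.658), a library that held 412 CPM of Tead1.

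The widest negative difference belonged to Srcap (chromosome 7, 127511983 to 127561219), the ATPase of a chromatin remodelling complex that exchanges histone variants. With the empty vector it stood at 70.2, 67.99 and 64.2 CPM untreated and 51.1, 57.7, 54.6 and 52.9 CPM treated. With the lentivirus the levels were 57.6, 59.5, 62.6 and 60.4 CPM untreated and 75.7, 63.2, 68.3 and 63.5 CPM treated, where library 5 was highest. The groups did not overlap within either vector. The difference was -0.49 (SE 0.0765, edgeR adjusted p = 0.0238). In the annotation Gm42715 lies over Srcap on the same strand and holds 90.8% of the 31-base words of its longest transcript, so that the authors' counting may have divided reads between them; Gm42715 had a difference of -0.13 and was not called (edgeR adjusted p = 0.655).

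Erc1 (chromosome 6, 119570796 to 119848167), a scaffold protein of vesicle docking sites that was described after its values were seen, held 153, 146 and 148 CPM untreated and 134, 138, 135 and 129.7 CPM treated with the empty vector. The lentivirus libraries held 93.03, 97.9, 95.6 and 96.7 CPM untreated and 107, 101, 109 and 102 CPM treated. The shift was of like size in both vectors, -0.15 and 0.13, for a difference of -0.28 (SE 0.0453, edgeR adjusted p = 0.0244), and again no treated library overlapped an untreated one. With library 11, which held 296.5 CPM of Erc1, the difference of Erc1 was -0.61. The longest transcript of Erc1 shares 20.7% of its 31-base words with Gm44317 on the other strand.

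Polr2a (chromosome 11, 69733997 to 69758637) encodes the largest subunit of RNA polymerase II, and Cdk12 (chromosome 11, 98203059 to 98278504) a kinase that phosphorylates it during elongation. Polr2a went from 225, 232 and 224 CPM untreated to 208, 212, 204 and 193 CPM treated with the empty vector. With the lentivirus it was at 169, 189.6, 182 and 196 CPM untreated and 216, 202, 210.3 and 195 CPM treated, and library 8 lay inside the untreated range. Their differences were -0.31 (SE 0.0608) and -0.29 (SE 0.0555), each at an edgeR adjusted p of 0.0477. With library 11 they were -0.34 for Polr2a and -0.45 for Cdk12. The adjusted p of 0.0477 is shared by 22 of the 28 genes, because the Benjamini-Hochberg step gives runs of genes the same value.

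Parp14 (chromosome 16, 35832874 to 35871544), an ADP-ribosyltransferase induced by interferon, was the only called gene that any of the 32 gene lists held. Its levels were 43.5, 40.1 and 42.4 CPM untreated and 36.2, 37.02, 35.04 and 36.1 CPM treated with the empty vector, all treated below all untreated. With the lentivirus they were 45.7, 54.8, 47.6 and 49.2 CPM untreated and 57.1, 52.98, 55.8 and 51.1 CPM treated, which overlap. Its difference of responses was -0.35 (SE 0.0717, edgeR adjusted p = 0.0477), but -0.02 with library 11 added back.

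A further 11 genes of negative difference lay between -0.36 and -0.20. They were Kat6a (-0.36), a histone acetyltransferase, Asxl2 (-0.32), a Polycomb-associated chromatin protein, Bbx (-0.30), an HMG-box protein, Elk4 (-0.31), an ETS factor that binds with serum response factor, and Tulp4 (-0.32), a tubby-like protein. Ddx6 (-0.23) encodes an RNA helicase of mRNA decay bodies. Ankfy1 (-0.22) encodes an endosomal protein, Heg1 (-0.28) a transmembrane protein of cell junctions and Luzp1 (-0.20) a leucine zipper protein of the cytoskeleton. Prr14l (-0.33) and 2610507B11Rik (-0.22) are the others; Luzp1 and 2610507B11Rik fall outside the naming rule. With library 11 added back Heg1 was at -0.04, Luzp1 at -0.07, Asxl2 at -0.16, Kat6a at -0.18 and Tulp4 at -0.65, each moved by over 1.5 times. For Tulp4, 31.4% of the 31-base words of its longest transcript occur in other genes, and for Prr14l 21.1%. Ddx6 held 321, 319 and 329.9 CPM untreated and 306, 305, 289.9 and 289 CPM treated with the empty vector, and 366, 384, 378 and 366 CPM untreated and 425, 398, 404 and 388 CPM treated with the lentivirus, with no overlap in either vector.

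Of the genes of positive difference, Timm21 (chromosome 18, 84946191 to 84951524), a subunit of the inner-membrane translocase that imports mitochondrial proteins, had the smallest p among those with a regular symbol. It was at 27.9, 30.9 and 29.5 CPM untreated and 33.7, 31.9, 32.1 and 33.5 CPM treated with the empty vector. With the lentivirus the levels were 45.9, 46.03, 46.5 and 47.6 CPM untreated and 41.3, 43.5, 40.7 and 41.2 CPM treated. Neither vector showed overlap, and the responses mirrored each other at 0.16 and -0.16, for a difference of 0.31 (SE 0.0543, edgeR adjusted p = 0.0401). With library 11, which held 12.7 CPM of Timm21, the difference was 0.53.

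Wsb1 (chromosome 11, 79239372 to 79254671), a SOCS-box substrate receptor of a ubiquitin ligase, held 87.1, 86.2 and 91.4 CPM untreated and 105, 103, 116 and 124 CPM treated with the empty vector, against 95.4, 94.05, 106 and 92.6 CPM untreated and 90.1, 95.7, 93.04 and 93.8 CPM treated with the lentivirus, where the groups overlapped. Its response was 0.35 with the empty vector and -0.06 with the lentivirus, a difference of 0.40 (SE 0.0784, edgeR adjusted p = 0.0477). The difference of Wsb1 was 0.01 with library 11 added back (edgeR adjusted p = 0.992). Rab24 (chromosome 13, 55319743 to 55321946), a small GTPase linked to autophagy, showed the same kind of pattern, with 46.6, 46.6 and 49.2 CPM untreated and 57.1, 54.3, 55.3 and 56.3 CPM treated with the empty vector, and overlap with the lentivirus (52.3, 54.1, 54.1 and 54.9 CPM untreated, 48.9, 54.8, 52.6 and 53.5 CPM treated). The difference for Rab24 was 0.27 (SE 0.0523). Its longest transcript shares 52.6% of its words with Prelid1 on the other strand. Without known strandedness, reads of that shared part cannot be assigned to 1 of the 2 genes. Prelid1 itself had a difference of -0.01.

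Zfp945 (chromosome 17, 22846697 to 22867134), a zinc finger gene, had a difference of 0.44 (SE 0.08704), from 21.8, 22.2 and 24.3 to 27.5, 25.4, 27.98 and 31.5 CPM with the empty vector and from 41.9, 46.2, 47.7 and 45.5 to 38.6, 42.7, 40.5 and 43.2 CPM with the lentivirus. Phkg2 (chromosome 7, 127573340 to 127583307), a catalytic subunit of phosphorylase kinase, differed by 0.28 (SE 0.0536), from 22.6, 21.9 and 22.9 to 24.5, 26.1, 25.1 and 25.5 CPM with the empty vector and from 23.7, 24.4, 24.7 and 24.2 to 22.1, 22.7, 23.2 and 22.2 CPM with the lentivirus. Zfp945 overlapped in the lentivirus libraries, and Phkg2 did not. With library 11 added back Zfp945 was at 0.27 and Phkg2 at -0.38, with its sign turned.

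The remaining 5 positive genes have predicted or clone-based names, fall outside the naming rule and were described after their values were seen. 2700099C18Rik (chromosome 17, 94750100 to 94775132), annotated as a transcribed pseudogene, had the smallest p of all genes. It held 5.23, 5.74 and 5.88 CPM untreated and 6.76, 7.57, 7.51 and 8.18 CPM treated with the empty vector, and 3.74, 3.99, 3.397 and 3.92 CPM untreated and 2.71, 2.91, 3.06 and 2.93 CPM treated with the lentivirus, for a difference of 0.79 (SE 0.118, edgeR adjusted p = 0.0238). It shares 15.8% of its words with Ndc80, a kinetochore gene, whose own difference was 0.35 and was not called (edgeR adjusted p = 0.132). 1810022K09Rik (chromosome 3, 14606284 to 14611285), which overlaps E2f5 on the other strand, had values from 38.2, 38.2 and 35.04 to 42.2, 40.1, 41.1 and 47.6 CPM with the empty vector and from 52.8, 49.7, 53.1 and 53.5 to 46.3, 44.9, 46.5 and 45.98 CPM with the lentivirus, a difference of 0.39 (SE 0.0685). Gm38393 (chromosome 7, 59974149 to 60005064), which lies over Snurf, Snrpn and Snhg14 on the same strand, was at 1.37 ± 0.239 CPM (SD, n = 3) untreated and 2.47 ± 0.374 CPM (SD, n = 4) treated with the empty vector, and at 3.46 ± 0.457 and 3.02 ± 0.141 CPM (SD, n = 4 each) with the lentivirus, and its difference was 1.05 (SE 0.191). Snhg14 had a difference of 0.70 without a call (edgeR adjusted p = 0.124). 1810022K09Rik shares 26.1% of its words with Gm4540.

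Gm28438 (chromosome 1, 24612775 to 24613119) is an unprocessed pseudogene of 345 bases in the nuclear genome whose 31-base words are to 99% those of mt-Nd3, a mitochondrial complex I gene. Its difference was 0.36 (SE 0.0709), with 342, 314 and 307 CPM untreated and 346, 355, 359 and 382 CPM treated with the empty vector, and 646, 592, 645 and 576 CPM untreated and 515, 533, 518 and 581 CPM treated with the lentivirus. mt-Nd3 itself was listed at group means of only 45.9 to 99.5 CPM and had a difference of 0.12 (edgeR adjusted p = 0.828), so the counts of this pair are uncertain. Gm7278 (chromosome 1, 152729159 to 152730559) is a processed pseudogene that shares 58.4% of its words with other genes. These include Gm9115 (36%) and Odc1, ornithine decarboxylase (35.7%). Gm7278 held 0.07 to 0.34 CPM over the 15 libraries. Its difference was 2.47 (SE 0.4998), with Odc1 at 0.08.

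**Figure D3:**
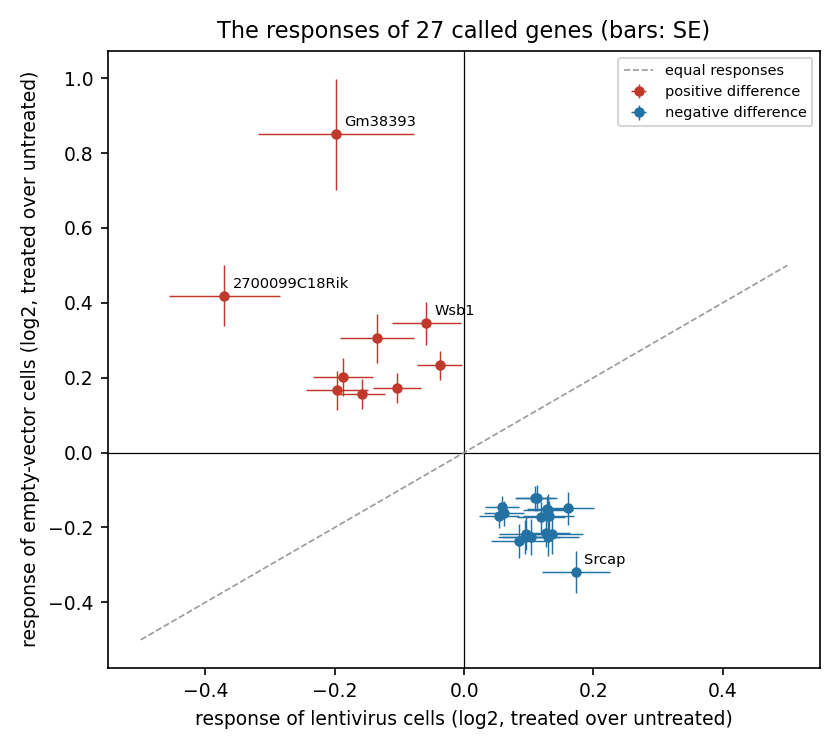
Log2 response to H2O2 with the empty vector (vertical) against that with the lentivirus (horizontal) for 27 called genes, with standard errors; Gm7278 at 1.51 and -0.96 lies outside the plot. The dashed line marks equal responses, and every point falls in a quadrant where the responses have opposite sign.

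RefSeq promoters (250 bases before to 50 after the first listed start, GRCm38.p6) matched 4 of the 10 positive and 12 of the 18 negative genes. Each was searched on both strands for 6 motifs: the antioxidant response element core TGACNNNGC, the ATF4 type site TGATGNAA, the E-box CACGTG, the cyclic AMP response element TGACGTCA, the AP-1 site TGANTCA and the CCAAT box. The antioxidant core was in 1 of 4 positive and 2 of 12 negative promoters, against 14.7% of the 10270 promoters of tested genes. The E-box was in 2 of 4 and 2 of 12, against 10.3%, and the cyclic AMP element in 1 of 4 and 0 of 12, against 3.3%. CCAAT was in 1 of 4 and 1 of 12, against 39.2%, and neither the ATF4 type (2.13%) nor the AP-1 site (5.4%) was found in any of the 16. The promoters below are shown because they carry an antioxidant core or a cyclic AMP element beside E-boxes; capitals mark the matches, some of which overlap. They are Rab24 at chr13:55321931-55322230 (minus strand), Wsb1 at chr11:79254646-79254945 (minus strand) and Tulp4 at chr17:6106580-6106879 (plus strand).
Rab24: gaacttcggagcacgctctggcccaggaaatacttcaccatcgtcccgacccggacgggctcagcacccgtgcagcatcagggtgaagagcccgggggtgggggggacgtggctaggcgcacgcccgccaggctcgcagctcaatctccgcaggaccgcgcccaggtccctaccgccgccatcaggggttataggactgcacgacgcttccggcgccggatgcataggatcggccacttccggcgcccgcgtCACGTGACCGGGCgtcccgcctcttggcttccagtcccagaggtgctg
Wsb1: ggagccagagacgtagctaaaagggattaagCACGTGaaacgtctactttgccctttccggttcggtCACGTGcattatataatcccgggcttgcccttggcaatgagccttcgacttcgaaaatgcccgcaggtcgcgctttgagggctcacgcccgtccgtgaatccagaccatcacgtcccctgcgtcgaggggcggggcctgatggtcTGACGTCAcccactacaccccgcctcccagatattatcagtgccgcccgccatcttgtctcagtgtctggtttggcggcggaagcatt
Tulp4: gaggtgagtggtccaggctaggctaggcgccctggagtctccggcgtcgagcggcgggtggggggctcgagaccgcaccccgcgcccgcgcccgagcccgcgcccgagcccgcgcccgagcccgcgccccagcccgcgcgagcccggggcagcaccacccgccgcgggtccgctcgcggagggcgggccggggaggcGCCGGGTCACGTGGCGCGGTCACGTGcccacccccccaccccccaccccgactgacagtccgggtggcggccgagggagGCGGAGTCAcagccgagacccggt
The antioxidant core and an E-box lie in the Rab24 promoter, 2 E-boxes and the cyclic AMP element in that of Wsb1, and 3 antioxidant cores and 2 E-boxes in that of Tulp4. A match is a description of the letters and says nothing of binding.

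The called genes of opposite direction differed in transcript length. The length implied by the deposited tables (counts over FPKM, a measure near the effective length) had a median of 6657 bases in the 18 genes of negative difference, 933 bases in the 9 positive genes with a value and 2057 bases over the 13274 genes with one. All 18 negative genes were longer than that median, from 2658 bases for Elk4 to 9043 for Prr14l, and 15 of them fell in the longest of 10 length classes of equal size. Of the positive genes 7 of 9 were shorter; Gm38393 and Zfp945, at 3030 and 4742 bases, were not. GC content of the annotated transcripts was 48.6% as a median in the negative, 41.7% in the positive and 50.7% in all genes.

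**Figure D4:**
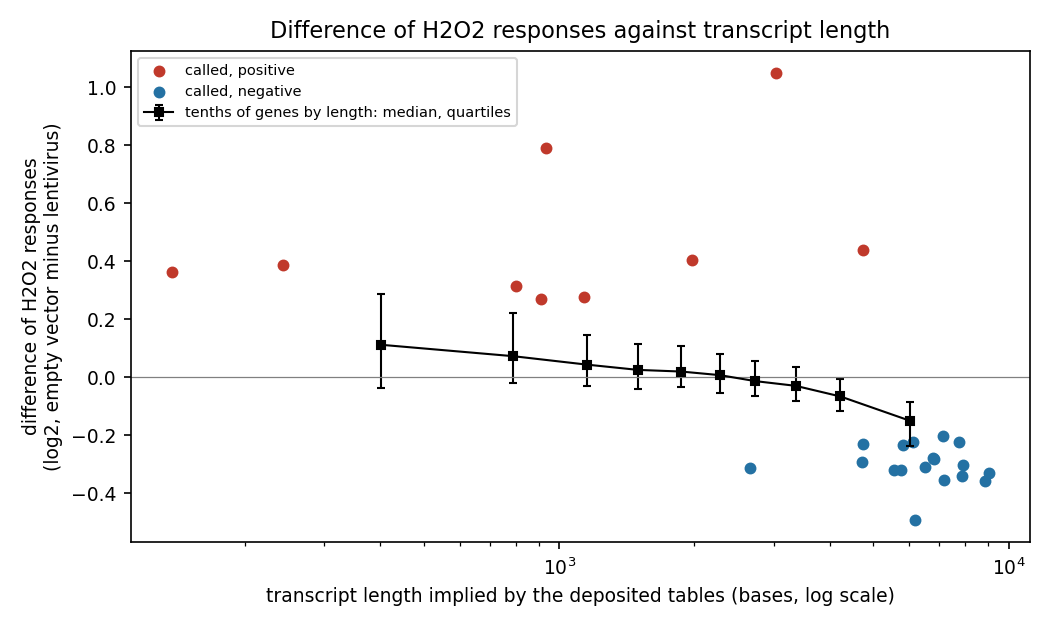
Difference of H2O2 responses (log2) against implied transcript length (bases, log scale), with the median and quartiles of 10 length classes of equal size in black and the called genes coloured by direction; Gm7278 has no length. The medians fall from 0.11 in the shortest to -0.15 in the longest class, and 15 of the 18 negative genes belong to the longest.

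The same trend ran through all genes. The median difference was 0.11 in the shortest class, 0.02 in class 5 and -0.15 in the longest, where the median response was -0.10 with the empty vector and 0.06 with the lentivirus. Over the 10482 genes whose average log2 CPM was 2 or more, the difference correlated with log2 length at a Pearson r of -0.48 and a Spearman rho of -0.54; genes are not independent and share the 15 libraries, so no p is given. For GC content r was -0.14. In single libraries, the longest 20% of genes minus the shortest 20% (median log2 deviation from the mean of the vector) was -0.11 to -0.01 in untreated and 0.02 to 0.10 in treated lentivirus libraries, which do not overlap. In empty-vector libraries it was -0.03 to 0.09 untreated and -0.10 to 0.02 treated, which overlap. Library 11, untreated and left out of these ranges, was at -0.05, inside the treated range. Libraries 16 and 15 were lowest among the treated empty-vector libraries.

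With the trend of counts with length taken out of each library, a check chosen after the data were seen, 1 gene was called, 2700099C18Rik (difference 0.73, edgeR adjusted p = 0.044), and 0 were lower. Under it 1548 of 13274 genes had an unadjusted p under 0.05, against 2391 of 14602 without it. The median of the 18 negative genes went from -0.30 to -0.09, that of the 9 positive genes with a length from 0.39 to 0.24. Tead1 was then at -0.09, Erc1 at -0.08 and Kat6a at -0.07, while those of Elk4 (-0.32), Srcap (-0.33), Zfp945 (0.52), Wsb1 (0.38) and Gm38393 (1.05) stayed closer to their values without the adjustment; none of these 8 passed the edgeR test. The adjustment also removes any response of the cells that follows transcript length, and the 2 cannot be told apart.

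**Figure D5:**
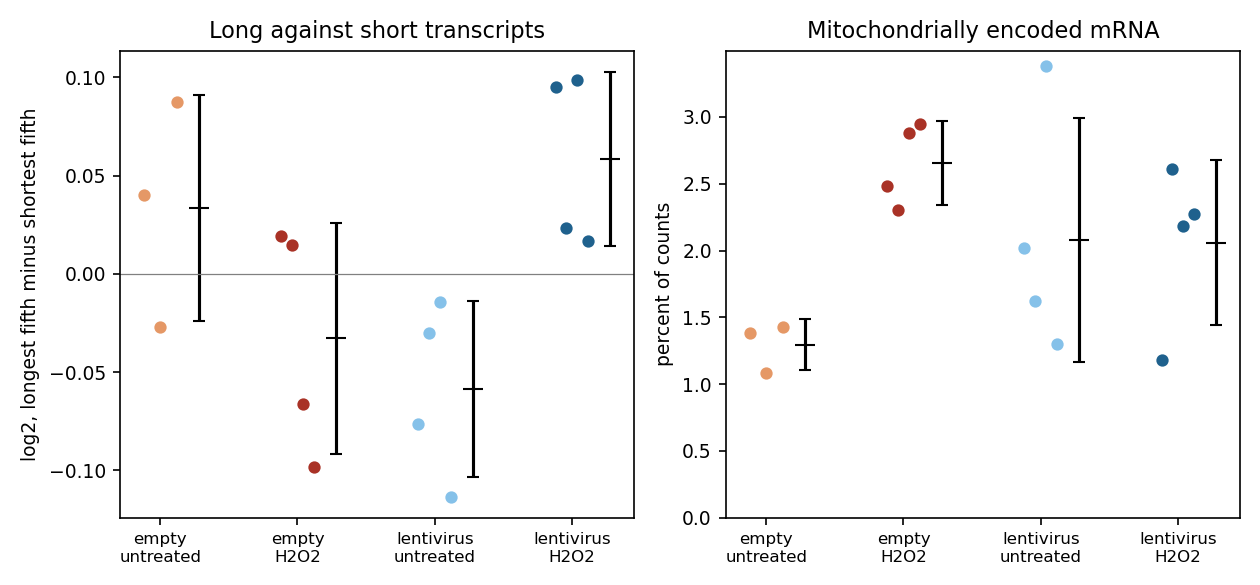
Left, median log2 deviation of the longest 20% of genes minus that of the shortest 20% in each library, and right, the percent of counts in mitochondrially encoded mRNA; points are 15 libraries by group, bars the mean and SD. The long-minus-short value is -0.11 to -0.01 in untreated and 0.02 to 0.10 in treated lentivirus libraries. The mitochondrial share is 1.08% to 1.43% in untreated and 2.3% to 2.95% in treated empty-vector libraries. Library 11, untreated and not shown, had a mitochondrial share of 2.41%.

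No peroxide-removing enzyme passed the edgeR test. Of 30 tested, 0 were called (3 at an unadjusted p under 0.05), with a median difference of 0.04 beside -0.00 over all genes. Over all genes tested 0.192% were called and 2391 of 14602 had an unadjusted p under 0.05. At that share a list of 30 would seldom hold a call. Cat, catalase, had a difference of 0.06 (SE 0.0415), Gpx1, a glutathione peroxidase, of 0.11 (0.107), Prdx1, a peroxiredoxin, of 0.11 (0.0807) and Sod2, the mitochondrial superoxide dismutase, of -0.07 (0.0597). The NRF2 targets likewise gave 0 calls of 30 (median 0.00; 2 at an unadjusted p under 0.05), with Hmox1, heme oxygenase, at -0.07 (SE 0.134), Nqo1, a quinone reductase, at 0.29 (0.215), Txnrd1, thioredoxin reductase, at -0.00 (0.0521) and Gclm, a subunit of the glutathione-synthesis ligase, at 0.04 (0.0638). The smallest edgeR adjusted p of these 8 genes was 0.516. With library 11 added back the median was -0.13 for peroxide removal (13 of 30 positive, against 18 without it) and -0.23 for NRF2 targets (9 of 30 positive, against 15). Hmox1 was then at -0.48 and Txnrd1 at -0.30, and the sign turned for Nqo1 (-0.26), Prdx1 (-0.24) and Gpx1 (-0.21); none was called. Hmox1 had means of 37.3 ± 4.39 (SD, n = 3) and 37.6 ± 5.72 CPM (SD, n = 4) untreated and treated with the empty vector, and 21.9 ± 0.528 and 23.3 ± 0.7697 CPM (SD, n = 4 each) with the lentivirus. Clic1 (0.03, SE 0.04996) and Clic5 (0.37, SE 1.197), the other CLIC genes tested, were not called either.

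Of the 32 lists, 31 held no called gene. Over the 32 lists 1 of 689 distinct tested genes was called, Parp14, which is near the 0.192% of all genes tested. The median difference was within 0.1 of 0 in 25 lists. In stress lists the median was -0.03 for 34 ATF4 targets, -0.03 for 26 genes of the unfolded protein response, -0.02 for 20 heat shock genes and -0.02 for 28 p53 targets. These medians were -0.14, -0.16, -0.67 and -0.24 with library 11 added back. The median was 0.05 for 37 nuclear genes of complex I (median length 489 bases) and 0.10 for 41 of complexes II to V (503 bases). It was -0.14 for 25 collagen and matrix genes (4204 bases) and 0.04 for 34 cholesterol and fatty acid synthesis genes (2982 bases). For 10 fibroblast and mesenchymal markers (1539 bases) it was -0.11, with members from -1.03 to 1.55. Whether the medians of lists follow their length was not tested. With the length trend taken out, complex I was at -0.05, complexes II to V at -0.03 and collagens at -0.09, and with library 11 added back they were at 0.04, 0.01 and -0.38.

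Members mostly shared a sign in several lists. Among these were proteasome subunits (26 of 31 positive, median 0.04), complexes II to V (34 of 41 positive) and the lists of epithelial and mammary and of endothelial markers (5 of 5 negative each). With the length trend taken out 13 of 31 proteasome genes and 12 of 41 genes of complexes II to V were positive. With library 11 added back 11 of 31 and 21 of 41 were. In each of the 2 marker lists 0 of 5 and 1 of 5 were positive under these checks. Over all genes tested 7249 of 14602 were positive, 1014 were higher at an unadjusted p under 0.05 and 1377 lower. Mitochondrially encoded mRNAs (median length 570 bases), genes of G2 and mitosis (2599) and interferon-stimulated genes (1998) are described here. All 13 mitochondrially encoded mRNAs had a positive difference (median 0.94; 0 called, 6 at an unadjusted p under 0.05), and 12 of 13 were positive with the length trend taken out (0.88) and 10 of 13 with library 11 added back (0.57). mt-Cytb, cytochrome b, had 1793 ± 258 CPM (SD, n = 3) untreated and 3981 ± 553 CPM (SD, n = 4) treated with the empty vector, and 3042 ± 1431 and 3025 ± 917 CPM (SD, n = 4 each) with the lentivirus. Its difference of 1.16 had an SE of 0.456 (edgeR adjusted p = 0.236). The mitochondrial mRNA share was 1.08% to 1.43% of counts in untreated and 2.3% to 2.95% in treated empty-vector libraries, which do not overlap. Library 11, untreated and left out, was at 2.41%, inside the treated range. In lentivirus libraries the share ran from 1.3% to 3.38% untreated and from 1.18% to 2.61% treated, which overlap.

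Beside 7249 of 14602 genes tested, 25 of 27 genes of G2 and mitosis had a positive difference, with a median of 0.21. Of the 27, 0 were called and 8 were higher at an unadjusted p under 0.05, against 1014 of 14602 genes tested. Their summed level was 3256, 3228 and 2864 CPM in untreated and 2656, 3013, 2844 and 3243 CPM in treated empty-vector libraries, which overlap. With the lentivirus it was 1345, 1346, 1209 and 1496 CPM untreated and 1123, 1092, 1178 and 1198 CPM treated, where all treated libraries lay below all untreated. Cenpa, the centromeric histone, had responses of 0.06 with the empty vector and -0.35 with the lentivirus, a difference of 0.41 (SE 0.123, edgeR adjusted p = 0.133), and Ccnb2, a mitotic cyclin, -0.01 and -0.29. With the length trend taken out all 27 were positive (median 0.20), and with library 11 added back also 27 (0.38). Library 11 held 1534 CPM of these genes in sum, below libraries 9, 10 and 12, so the larger median rests on that library. DNA replication genes had a median of 0.11, with 25 of 32 positive and 0 at an unadjusted p under 0.05.

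Interferon-stimulated genes lay on the other side, with 37 of 43 negative, a median of -0.13, 1 called (Parp14) and 11 lower at an unadjusted p under 0.05. Of the 14602 genes tested 7353 were negative and 1377 were lower at that p. Isg15, a ubiquitin-like modifier, had responses of -0.30 with the empty vector and 0.09 with the lentivirus (difference -0.39, SE 0.141), and Ifih1, the RNA sensor MDA5, -0.20 and 0.03 (-0.23, SE 0.07197), neither of which passed the edgeR test. The median was -0.15 with the length trend taken out, but 0.11 with library 11 added back, where 32 of 43 genes were positive. Library 11 held 842 CPM of these genes in sum, against 1617 to 1752 CPM in libraries 9, 10 and 12, so the direction of this list turns on that library.

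The number of calls stood close to its threshold. Just inside it were 2610507B11Rik, Parp14 and Gm7278 at an edgeR adjusted p of 0.0477, and just outside Akap2 (difference -0.20), Zfp462 (-0.35) and Aak1 (-0.30) at 0.0525. At an adjusted p under 0.1, 65 genes were higher and 172 lower, and under 0.01 none passed. With library 11 added back edgeR called 0 genes, the smallest adjusted p was 0.658 and 859 genes had an unadjusted p under 0.05; DESeq2 on the 15 libraries called 122 higher and 387 lower. Of the 28, 27 kept their direction with library 11, all but Phkg2, though Wsb1 and Parp14 were then near 0. Leaving out library 1, 7, 9 or 15 gave 0 calls, and leaving out library 5 or 13 gave 1. The signs of all 28 held when any of the 15 libraries was left out.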

How the data were processed

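The submitters' processing notes name cutadapt, STAR, RSEM and mm10. For their versions, the annotation and the strand setting, nothing is given in the sources used here. Deposited counts are whole numbers for 25745 genes, perhaps rounded by the authors from expected counts, and deposited FPKM, which the authors scaled to length and depth, covers 25372 genes.

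The difference of responses was tested on the counts with edgeR 4.0.16 (R 4.3.3): robust quasi-likelihood fit of 15 libraries, 1 coefficient per group, TMM scaling, filterByExpr, Benjamini-Hochberg adjustment over 14602 genes. SE is the log2 value over the square root of F. The biological coefficient of variation was 5.28%. No replicate pair was equal within sampling noise (lowest chi-square per degree of freedom 5.05). The members, gene lists and tests were chosen with earlier results of these data known. Positions came from GENCODE vM21 by symbol (25745 matched). Genes were named by a rule: the 12 called genes of largest and the 12 of smallest difference with regular symbols and at least 1 CPM, the 6 most abundant in each direction, called list members, the CLIC family and 8 oxidant genes; called genes outside the rule were described after their values were seen. Of the 28 called genes 27 are given, and 1 is not reported here. Alternatives were other size factors, DESeq2 1.42.0, limma 3.58.1 with voom or log2(FPKM + 1) or log2(FPKM + 0.1), other filters and thresholds, library 11 added back and each library left out. Length and GC offsets (splines of the log2 deviation from the vector's mean, per library) and the threshold of 0.1 were added after the data were seen.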

Additional observations from a re-analysis of the deposited data

Results flagged for a closer look

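The difference of the H2O2 responses between the vectors, tested as an interaction by edgeR, put the called genes here, of which 27 are given. On the log2 scale, empty vector minus lentivirus, the positive differences were those of Gm7278 (2.47), Gm38393 (1.05), 2700099C18Rik (0.79), Zfp945 (0.44), Wsb1 (0.40), 1810022K09Rik (0.39), Gm28438 (0.36), Timm21 (0.31), Phkg2 (0.28) and Rab24 (0.27). The negative differences were those of Srcap (-0.49), Kat6a (-0.36), Parp14 (-0.35), Tead1 (-0.34), Prr14l (-0.33), Tulp4 (-0.32), Asxl2 (-0.32), Elk4 (-0.31), Polr2a (-0.31), Bbx (-0.30), Cdk12 (-0.29), Heg1 (-0.28), Erc1 (-0.28), Ddx6 (-0.23), Ankfy1 (-0.22), 2610507B11Rik (-0.22) and Luzp1 (-0.20). Of all 28 called genes, 12 had a response that passed the edgeR test with the empty vector, and 0 with the lentivirus.

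Within groups of 4 libraries, 126 sets of values were examined for a library far from the other 3, and 2 were found, while chance flags about 1 in 20. Ankfy1 was at 142.2 CPM in library 16, treated with the empty vector, against 150.7 to 152.2 CPM in the other libraries of its group. Clic4 was at 249.3 CPM in library 2, untreated with the lentivirus, against 227.1 to 229.8 CPM. Without library 16 the difference of Ankfy1 was -0.20 (edgeR adjusted p = 0.0835), against -0.22 with it.

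In library 11, outside the 15 libraries compared, structural RNA genes took 0.727% of counts, against 0.0172% to 0.0391% in the others.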

How the results depend on the processing

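The counts of called genes, 10 with a higher and 18 with a lower response in the empty-vector cells, were close to the threshold and moved with most choices. RLE size factors (9 and 21) stayed within 1.5 times of both counts, as did the GC trend taken out (8 and 27). Fewer were called with upper quartile size factors (6 and 3), limma voom with quality weights (3 and 3), edgeR without robust estimation (2 and 3) and a filter of 10 CPM in 4 libraries (3 and 3). No gene was called with library 11 added back (0 and 0), and limma gave 0 and 0 on log2(FPKM + 1), on log2(FPKM + 0.1) and on log2(FPKM + 1) without a filter, with 1864 to 2431 genes at an unadjusted p under 0.05. More were called by DESeq2 (122 and 387), without a filter on low counts (47 and 119) and at an adjusted p under 0.1 (65 and 172). A 1.5-fold minimum left 3 and 0, an adjusted p under 0.01 left 0 and 0. With the length trend taken out the counts were 1 and 0, and with length and GC trends 0 and 0. With 1 library left out they ran from 0 to 39 and from 0 to 131, most without library 2 or 14, and from 0 to 28 of the 28 genes were called. Directions were steadier. They turned for Luzp1 (0.0117 with the length trend taken out, 0.0225 with both trends), Ankfy1 (0.0186 and 0.0205), Prr14l (0.0117 with both trends) and Phkg2 (-0.38 with library 11). In other alternatives each called gene with a value kept its sign. The cause was not tested. No paired analysis was possible because no library number is shared by groups. At totals of 47.1 to 61.9 M counts, replicate libraries differed by more than counting noise (lowest chi-square per degree of freedom 5.05).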
